A study of Sus scrofa with 23 samples.

Results

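The SLC38 genes encode sodium-coupled neutral amino acid transporters, many of which carry glutamine. The 9 symbols SLC38A1, SLC38A2, SLC38A3, SLC38A4, SLC38A6, SLC38A7, SLC38A9, SLC38A10 and SLC38A11 were taken by name from the annotation, which lists 11 SLC38 symbols among 26687 genes. The rule names symbols and sets no threshold on measured values, though earlier results of these data were known when it was written. The data came from a study of newborn pigs in which RNA of the kidney cortex was sequenced after removal of ribosomal RNA, with 1 library for each of 23 pigs. The groups were 11 pigs labelled CFTR-/- (CF), 6 labelled CFTR+/- (HET) and 6 labelled CFTR+/+ (WT), all studied as newborns, and HET and WT together made the 12 non-CF pigs. CFTR, the anion channel that is disrupted in cystic fibrosis, was targeted in the germline and not in a single cell type, and the labels give neither litter nor sex. The comparison of CF with non-CF addressed whether RNA of these transporters differed between the genotypes.

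Glutamine is taken up from the blood and from the filtrate by cells of the renal tubule, which break it down to release ammonium and so help to excrete acid. Members of the A system (SLC38A1, SLC38A2 and SLC38A4) bring glutamine, alanine and other small neutral amino acids into the cell together with sodium. SLC38A3 belongs to the N system, which exchanges glutamine, asparagine and histidine with sodium against a proton, and in the kidney it lies in the basolateral membrane of the proximal tubule. SLC38A7 and SLC38A9 sit in the lysosome, where the first exports glutamine and asparagine and the second reports lysosomal arginine to the growth kinase MTOR. SLC38A6, SLC38A10 and SLC38A11 are less well understood.

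Libraries held 32901281 to 52952273 estimated counts, and 3 counts corresponded to 0.0567 to 0.0912 CPM (counts scaled to a library total of 1e+06), a limit that covers counting error only. CFTR RNA went against its labels, since it was 1.27 to 3.70 CPM in libraries labelled WT, 9.47 to 17.6 in HET and 12.5 to 23.6 in CF. Whether these reads came from the disrupted part of CFTR was not tested, and groups are given below as the libraries are labelled. Markers of the proximal tubule summed to 7239 CPM or more in every library, and those of liver and skeletal muscle were low apart from APOA1, which was at a mean of 87.5 CPM in CF and 68.6 in non-CF. On the second axis of a multidimensional scaling, 13 libraries (pigs 1 to 6 and 12 to 18) lay at or below 0.012 and the other 10 (pigs 7 to 11 and 19 to 23) at or above 0.333. The first set held 6 CF, 3 HET and 4 WT libraries, and the second held 5 CF, 3 HET and 2 WT. The labels name no batch, and the CF difference of each member is therefore also given within both sets of pig numbers.

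SLC38A2 had the highest RNA level per transcript length in these cortex samples. Its TPM, a length-corrected share of all transcripts in a library, averaged 60.0 ± 10.7 (SD, n = 23), or 37.8% of the summed level of the 9 members. SLC38A3 came next at 33.2 ± 12.95 TPM and took 20.9% of the sum. SLC38A9 followed at 20.4 ± 7.65 TPM and SLC38A10 at 18.8 ± 2.35, and the order of these neighbours was not fixed, since SLC38A9 lay above SLC38A10 in 10 of 23 libraries. SLC38A1 stood lower at 11.2 ± 1.65 TPM, below SLC38A10 in 23 of 23 libraries. SLC38A6 and SLC38A7 shared a level, 5.93 ± 1.29 and 5.90 ± 0.814 TPM, and SLC38A6 was the higher in 11 of 23 libraries. The lowest members were SLC38A11 at 2.54 ± 0.764 TPM and SLC38A4 at 0.939 ± 0.290 TPM. SLC38A2 therefore stood above 95.9% of all genes in mean TPM, and SLC38A4 above 37.4%. The 9 members summed to 165.6 ± 17.8 TPM in the 11 CF libraries and 152.7 ± 18.6 TPM in the 12 non-CF libraries.

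**Figure D1:**
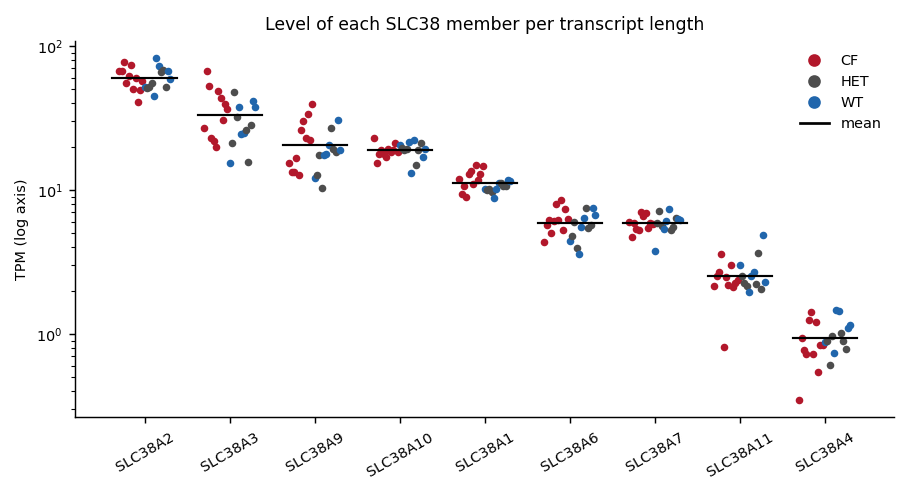
TPM of each SLC38 member (log axis) in 23 libraries, coloured by genotype label, with a bar at the mean. The members span from 0.939 TPM on average for SLC38A4 to 60.0 TPM for SLC38A2, and labels intermingle in each.

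Members also differed in how much they varied between pigs of the same label and set of pig numbers. The SD of log2 CPM after both were taken out was 0.13 for SLC38A1, less than in all but 9.98% of the genes tested. It was 0.58 for SLC38A3, more than in 92.6% of them, and the median gene had 0.24. SLC38A11 (0.47) and SLC38A4 (0.37) were the next most variable members, and SLC38A11 ran from 1.72 CPM in CF pig 5 to 9.12 CPM in WT pig 22.

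In edgeR, no SLC38 member passed the threshold in any of the 4 comparisons of genotype labels, while DESeq2 called SLC38A1 for CF against WT. In edgeR (quasi-likelihood, p adjusted by Benjamini-Hochberg over all genes), 0 of 9 members had an adjusted p under 0.05 for CF against non-CF, where 0.349% of 20921 genes did. At an unadjusted p under 0.05 it was 1 of 9 (SLC38A1), against 13.7% of all genes. DESeq2 also called 0 of 9, against 2.41% of the genes it tested. Log2 fold changes were positive for 7 members and negative for 2, with a median of 0.07 beside a median of about 0 over all genes. The 95% intervals of 7 members lay within 0.5 on either side of 0, and those of all 9 within 1, on the log2 scale. In bulk tissue, fewer cells of a type and less RNA per cell cannot be told apart.

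**Figure D2:**
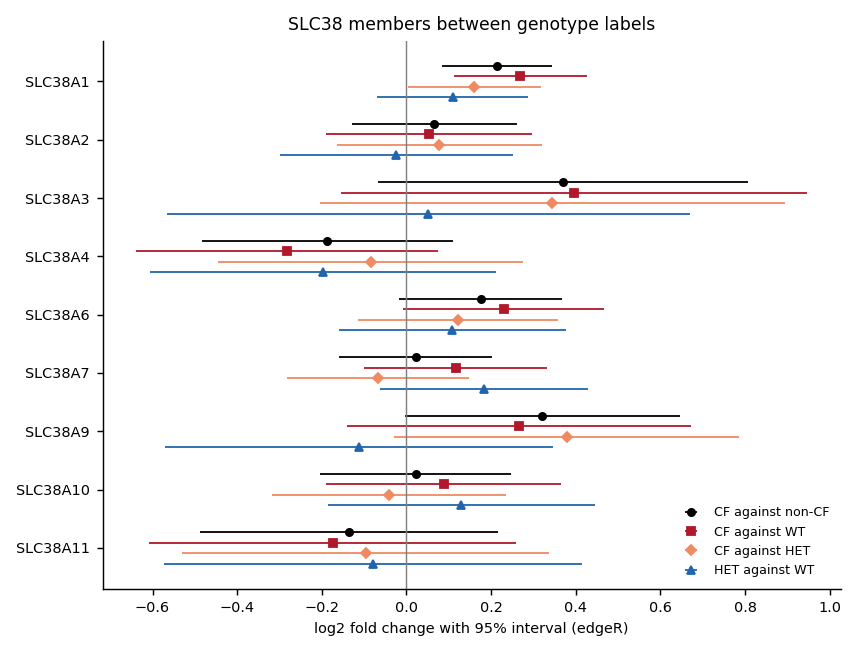
Log2 fold change of each SLC38 member in the 4 comparisons of genotype labels, with its 95% interval from edgeR. The intervals of SLC38A1 for CF against non-CF, WT and HET lie above 0, and none of these has an adjusted p under 0.05.

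In the pairs of labels, edgeR also called no member. For CF against WT, 0 of 9 members were called where 0.336% of 21434 genes were, and 1 of 9 had an unadjusted p under 0.05 against 14% of genes. DESeq2 called 1 of 9 (SLC38A1) there, against 3.21% of the genes it tested. For CF against HET, the counts were 0 of 9 called against 0%, and 1 of 9 at an unadjusted p under 0.05 against 9.83%. For HET against WT, they were 0 of 9 against 0.00467%, and 0 of 9 at an unadjusted p under 0.05 against 8%. DESeq2 called 0 of 9 in both of these, where it called 0.265% and 0.114% of genes. These 3 comparisons share libraries with each other and with CF against non-CF.

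SLC38A1, an A system importer, gave the smallest p of the family in each of the 3 comparisons of CF with other labels. The gene lies on the minus strand of chromosome 5 (Sscrofa11.1 chr5:77009840-77076723). It was measured at 36.6, 44.3 and 51.5 CPM (lowest, median and highest) in the CF libraries and at 34.1, 38.6 and 43.6 CPM in the non-CF libraries. HET libraries ran from 37.6 to 43.6 CPM and WT libraries from 34.1 to 39.5. The groups overlapped, with 8 of 11 CF libraries above the non-CF median and 13 of 23 libraries in the shared range. The log2 fold change for CF against non-CF was 0.21 (SE 0.063, 95% interval 0.08 to 0.34), with an adjusted p of 0.109. It was 0.27 (SE 0.077) against WT with an adjusted p of 0.100, 0.16 (SE 0.076) against HET with an adjusted p of 0.498, and 0.11 (SE 0.086) for HET against WT with an adjusted p of 0.775. The CF difference was 0.21 within pigs 1 to 6 and 12 to 18 and 0.22 within pigs 7 to 11 and 19 to 23. The highest 3 values of the first set were in CF pigs 1, 5 and 6, and the other 3 CF libraries of that set fell among the non-CF libraries.

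Of the 31-base words in SLC38A1 transcripts, 15.8% also occur in LOC106510388, a gene on the other strand. Without knowing whether strand was used in the counting, reads from that stretch cannot be told apart. LOC106510388 was at 9.53 ± 1.35 CPM (n = 11) in CF and 10.1 ± 1.15 CPM (n = 12) in non-CF libraries, a log2 fold change of -0.09 (adjusted p 0.703, edgeR). The sign of this value was the opposite of that for SLC38A1.

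SLC38A2, the most abundant member, is the A system importer that cells raise when amino acids run short. It lies next to SLC38A1 on the same strand (chr5:77113491-77127715), 36767 bases away. The element through which this response is known to act sits in the first intron. The stretch of the pig intron below (chr5:77126887-77126975, minus strand, RefSeq Sscrofa11.1) is shown because it holds the only match in that intron to the composite C/EBP-ATF letters TGATGNAAT, searched on both strands and given in capitals.

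SLC38A2 first intron: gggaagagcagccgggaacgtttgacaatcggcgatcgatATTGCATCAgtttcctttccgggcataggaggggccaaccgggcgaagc

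The match begins 780 bases inside the gene start. No promoter of the 9 members (250 bases before to 50 after the gene start) held the motif, against 0.672% of 26639 promoters. SLC38A1 had a match in an exon 55 bases inside its gene start (chr5:77076660-77076668), just outside that window. For SLC38A3 the window lies at the start of a model with 1.11% of its counts. Matches inside genes are counts of letters that were not adjusted for gene length, with 3 in the 14225 bases of SLC38A2 and 20 in the 219253 bases of SLC38A9. The cAMP response element TGACGTCA and the lysosomal E-box TCACGTGA also had no match in the 9 promoters, against 1.9% and 0.946% of all promoters.

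Over all libraries SLC38A2 differed little between the labels, and within the sets of pig numbers its difference had opposite signs, with no adjusted p under 0.05 in edgeR. The 11 CF libraries were at 158, 230 and 272 CPM (lowest, median and highest) and the 12 non-CF libraries at 173, 202 and 269. CF against non-CF gave a log2 fold change of 0.07 (SE 0.095, 95% interval -0.13 to 0.26), with an adjusted p of 0.831.

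Among pigs 1 to 6 and 12 to 18, the 6 CF libraries were at 230, 246 and 272 CPM and the 7 non-CF libraries at 173, 194.5 and 269. All 6 CF libraries lay above the non-CF median, though WT pig 17 at 269 CPM was above 5 of them. Among pigs 7 to 11 and 19 to 23, CF libraries were at 202, 187, 159.8, 158 and 174 CPM and non-CF libraries at 204, 239, 203, 205 and 191 CPM. There 0 of 5 CF libraries lay above the non-CF median, and 1 non-CF library (WT pig 23, 191 CPM) fell within the CF range. CF libraries of the first set were all above CF libraries of the second, while the non-CF libraries of the sets overlapped.

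The log2 fold change of SLC38A2 was 0.29 (SE 0.097, adjusted p 0.334, edgeR) in the first set and -0.24 (SE 0.090, adjusted p 0.185, edgeR) in the second. The difference between these, second minus first, was -0.53 (SE 0.139, 95% interval -0.82 to -0.24). Its unadjusted p was 8.31e-04 and its adjusted p 0.157 in edgeR's interaction test, so that 0 of 9 members were called where 0.0191% of genes were. DESeq2 gave -0.53 with an adjusted p of 0.0411 and called 1 of 9, against 0.728% of genes. At an unadjusted p under 0.05 it was 1 of 9 members against 10.1% of genes. Without WT pig 17 the difference was -0.61 with an adjusted p of 0.0331 in edgeR, and with any other library left out it was between -0.59 and -0.47. The sets were told apart on the same expression data, and the labels do not say what separates them.

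**Figure D3:**
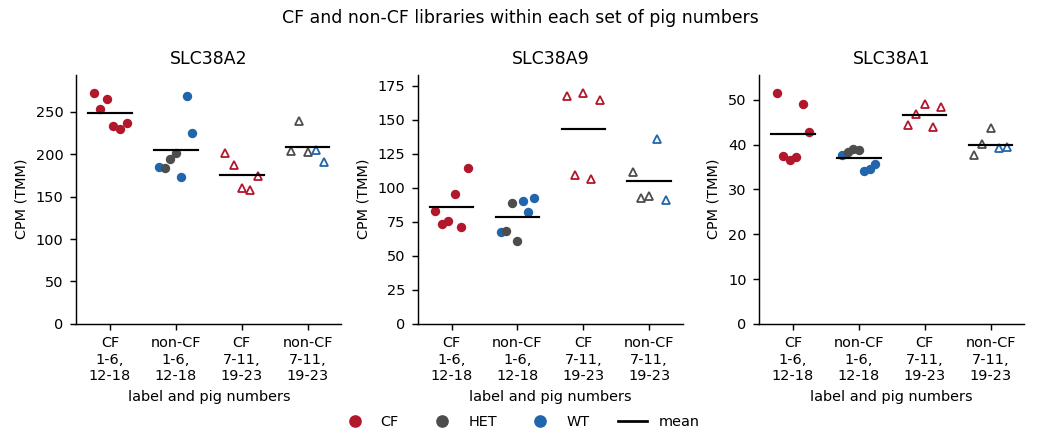
CPM of SLC38A2, SLC38A9 and SLC38A1 in CF and non-CF libraries within each set of pig numbers, with a bar at the mean and colours for the labels. SLC38A2 is higher on average in CF than in non-CF in the first set and lower in the second, whereas SLC38A1 is higher in both.

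SLC38A4, the A system member known mainly from liver, is the last of the chromosome 5 trio (chr5:77411610-77489542, minus strand, 283894 bases from SLC38A2). It was at 1.39, 2.80 and 4.31 CPM in CF libraries and 2.20, 3.24 and 4.37 CPM in non-CF libraries. The lowest value was in CF pig 1, and 20 of 23 libraries lay in the shared range. On the log2 scale the CF difference was -0.19 (SE 0.144, 95% interval -0.48 to 0.11, adjusted p 0.623, edgeR). Against WT it was -0.28 (SE 0.173, adjusted p 0.494, edgeR). Within the first and second sets of pig numbers the CF difference was -0.10 (SE 0.234) and -0.28 (SE 0.142), with adjusted p values of 0.942 and 0.326 in edgeR. ALB, a defining liver gene, was at 0.441 ± 0.402 CPM in CF (n = 11) and 1.51 ± 3.02 CPM in non-CF libraries (n = 12), with 9 of 11 CF libraries above the non-CF median, and CYP2E1 did not pass the filter.

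SLC38A3, the basolateral glutamine exchanger of the proximal tubule, was the most variable member (chr13:32683131-32699803, plus strand). It was at 38.2, 77.9 and 162 CPM in CF libraries and 34.5, 61.2 and 111 CPM in non-CF libraries. CF pig 2 had the highest value and WT pig 12 the lowest, and 19 of 23 libraries lay in the shared range. The log2 fold change was 0.37 (SE 0.212, 95% interval -0.07 to 0.81, adjusted p 0.462, edgeR), the largest of the family and among the least certain. With single libraries left out it ran from 0.23 to 0.47. In the second set 5 of 5 CF libraries were above the non-CF median, and in the first set 4 of 6 were. Log2 fold changes were 0.45 (SE 0.204) and 0.32 (SE 0.321) there, and neither set gave an adjusted p under 0.275 in edgeR. The summed proximal tubule markers were 7715 to 14112 CPM in CF and 7239 to 11938 CPM in non-CF libraries, and 0 of these 7 markers passed the test. In CF 6 of the 7 were higher, 2 of them at an unadjusted p under 0.05 where 13.7% of all genes were: AQP1, the water channel (log2 fold change 0.68, SE 0.160, adjusted p 0.0534, edgeR, with 11 of 11 CF libraries above the non-CF median), and CUBN, an endocytic receptor (0.24, SE 0.088, adjusted p 0.198, edgeR, 10 of 11). Their part in the values of SLC38A3 was not tested.

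SLC38A9, the lysosomal arginine sensor, was higher in the second set of pig numbers whatever the label (chr16:34639575-34858827, minus strand). It was at 81.9 ± 14.5 CPM (n = 13) in pigs 1 to 6 and 12 to 18 and at 124 ± 32.4 CPM (n = 10) in pigs 7 to 11 and 19 to 23. This contrast between sets of libraries, 0.58 on the log2 scale, was larger than that of 96.2% of genes, as a description without a test. CF libraries were at 71.6, 107 and 169.7 CPM and non-CF libraries at 61.1, 90.8 and 136 CPM. CF pigs 7, 9 and 11, all of the second set, stood above every other library.

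The log2 fold change of SLC38A9 for CF against non-CF was 0.32 (SE 0.158, 95% interval -0.00 to 0.65), with an adjusted p of 0.373 in edgeR. It was 0.13 (SE 0.127) in the first set and 0.46 (SE 0.161) in the second, with 3 of 6 and 5 of 5 CF libraries above the non-CF median. The difference between sets was 0.33 (SE 0.218, adjusted p 0.643, edgeR). SLC38A9 shares 4.67% of its 31-base words with other genes, more of them (233 of 601) with PLPP1, which overlaps it on the same strand, than with any other gene. PLPP1 was at 66.1 ± 7.56 CPM in CF (n = 11) and 65.3 ± 7.27 in non-CF (n = 12), a log2 fold change of 0.02 (adjusted p 0.946, edgeR).

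SLC38A7, the lysosomal exporter of glutamine and asparagine, was nearly level across the labels (chr6:20387113-20401733, minus strand). It was at 18.1, 20.5 and 25.3 CPM in CF libraries and 13.3, 19.9 and 26.1 CPM in non-CF libraries. CF and non-CF differed by 0.02 on the log2 scale (SE 0.088), with a 95% interval from -0.16 to 0.20 (adjusted p 0.956, edgeR). It was 0.01 (SE 0.122) in the first set of pig numbers and 0.05 (SE 0.118) in the second. WT pig 12 was lowest, followed by HET pig 19 at 16.8 CPM, and 20 of 23 libraries lay in the shared range.

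SLC38A6 was measured at 12.7, 15.3 and 17.99 CPM in CF libraries and 9.37, 13.8 and 16.98 CPM in non-CF libraries (chr1:189923385-189988562, plus strand). The log2 fold change was 0.18 (SE 0.093, 95% interval -0.02 to 0.37, adjusted p 0.419, edgeR), and 10 of 11 CF libraries lay above the non-CF median. It was 0.30 (SE 0.114) in pigs 1 to 6 and 12 to 18 and 0.03 (SE 0.097) in pigs 7 to 11 and 19 to 23. The gene was also higher in the second set, at 15.95 ± 1.40 CPM against 13.4 ± 2.23 CPM in the first.

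SLC38A10 was at 51.1, 63.5 and 95.3 CPM in CF libraries and 42.3, 68.1 and 82.9 CPM in non-CF libraries (chr12:1481245-1514499, plus strand). Its log2 fold change was 0.02 (SE 0.110, 95% interval -0.20 to 0.25, adjusted p 0.964, edgeR), and its sign turned with upper-quartile normalization (-0.0050). In the first and second sets of pig numbers it was -0.0145 (SE 0.150) and 0.0820 (SE 0.144).

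SLC38A11, the other low member, was at 1.72, 5.01 and 8.31 CPM in CF libraries and 4.12, 4.83 and 9.12 CPM in non-CF libraries (chr15:71561270-71613425, minus strand). Its log2 fold change was -0.14 (SE 0.171, 95% interval -0.49 to 0.22, adjusted p 0.793, edgeR). Within the first set of pig numbers it was 0.02 (SE 0.237) and within the second -0.32 (SE 0.211), and the difference between them was -0.35 (SE 0.346, adjusted p 0.783, edgeR). Of the 23 libraries, CF pig 5 stood below the rest, and CF pig 4, HET pig 20 and WT pig 22 stood above the next highest, WT pig 12 at 6.19 CPM.

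**Figure D4:**
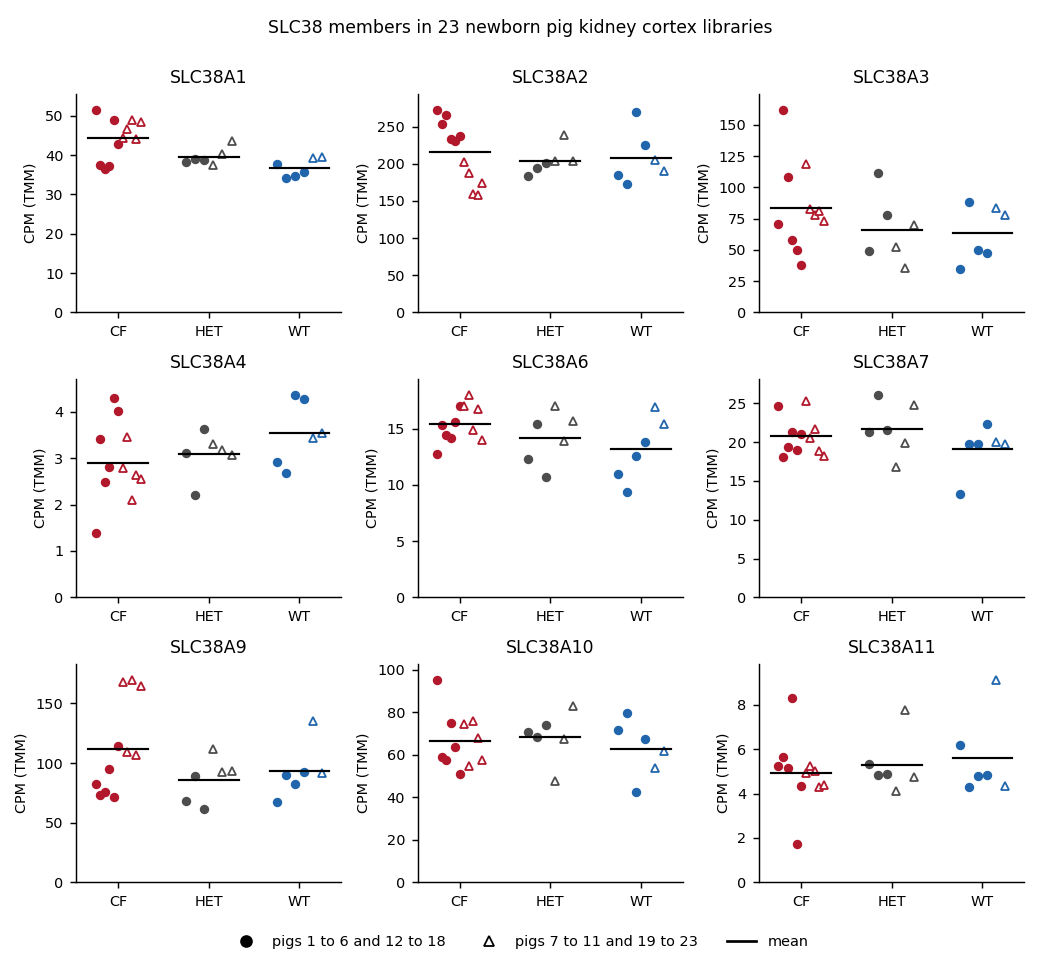
CPM of the 9 SLC38 members by genotype label, with filled circles for pigs 1 to 6 and 12 to 18, open triangles for pigs 7 to 11 and 19 to 23 and a bar at each mean. In all 9 members the CF libraries overlap the HET and WT libraries, and for SLC38A2 the CF circles lie above the CF triangles.

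The upstream sequences of the most and of a weakly expressed member are shown because they differ in base composition, with CG pairs in capitals. The 120 bases before the gene start of SLC38A2 (chr5:77127716-77127835, minus strand) hold 14 CG pairs and are 78.3% G or C. The same stretch before SLC38A11 (chr15:71613426-71613545, minus strand) holds 0 CG pairs and is 46.7% G or C. Both were read from RefSeq Sscrofa11.1.

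SLC38A2 upstream: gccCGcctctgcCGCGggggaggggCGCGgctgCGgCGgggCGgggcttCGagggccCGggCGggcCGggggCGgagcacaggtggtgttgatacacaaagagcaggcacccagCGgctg

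SLC38A11 upstream: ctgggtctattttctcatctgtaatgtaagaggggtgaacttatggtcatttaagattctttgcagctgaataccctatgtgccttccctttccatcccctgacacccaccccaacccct

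From 250 bases before to 50 after the gene start, CG pairs numbered 32 for SLC38A2, 31 for SLC38A1, 27 for SLC38A6, 23 for SLC38A10, 14 for SLC38A9, 10 for SLC38A7, 9 for SLC38A3, 6 for SLC38A4 and 1 for SLC38A11. The 2 members with the fewest were also the 2 with the lowest mean TPM. SLC38A3, with the second highest TPM, had fewer than 6 of the other members. Its annotated gene start is that of a model with 1.11% of its counts. The model with 98.9% starts at chr13:32684741, outside this window, where CG pairs were not counted. For SLC38A4 the model at the gene start took 18.4% of counts.

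The annotation gives 29 transcript models for the 9 members, of which 25 passed the filter. None had an adjusted p under 0.05 for CF against non-CF in edgeR, where 0.00405% of 49377 transcripts did, and 1 of 25 had an unadjusted p under 0.05 against 7.61% of transcripts. DESeq2 also called 0 of the members' transcripts, against 1.16% of those it tested. SLC38A1, SLC38A7 and SLC38A10 have 1 model each.

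SLC38A2 was read from 3 models. The longest (4871 bases) took 51.0% ± 5.87 of the counts, a model with a shorter coding part (1221 bases of coding sequence against 1521) took 39.3% ± 4.77, and a model without untranslated ends took 9.71%. In CF libraries the longest model took 52.99% ± 5.79 and in non-CF libraries 49.2% ± 5.58, a difference within their spread. SLC38A6 split between a model of 2728 bases and one of 2746 bases, and the second took anything from 7.79% to 56.6% of the counts.

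A large share of the SLC38A9 counts was assigned to models annotated without a coding sequence. The noncoding models took 52.7% ± 5.34 of its counts (n = 23), with 53.3% ± 4.84 in CF and 52.1% ± 5.92 in non-CF libraries. Of these, the model of 11869 bases alone took 30.5% on average and between 4.63% and 51.0%. In SLC38A4 the single noncoding model took 50.4% of counts, and no coding model of that gene took more than 21.3% on average. By this assignment, the SLC38A9 and SLC38A4 gene values include counts outside the coding models. The split between similar models was unsteady, since the SLC38A9 model of 12139 bases took from 0.12% to 33.5%. How much noncoding RNA was present was not tested.

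**Figure D5:**
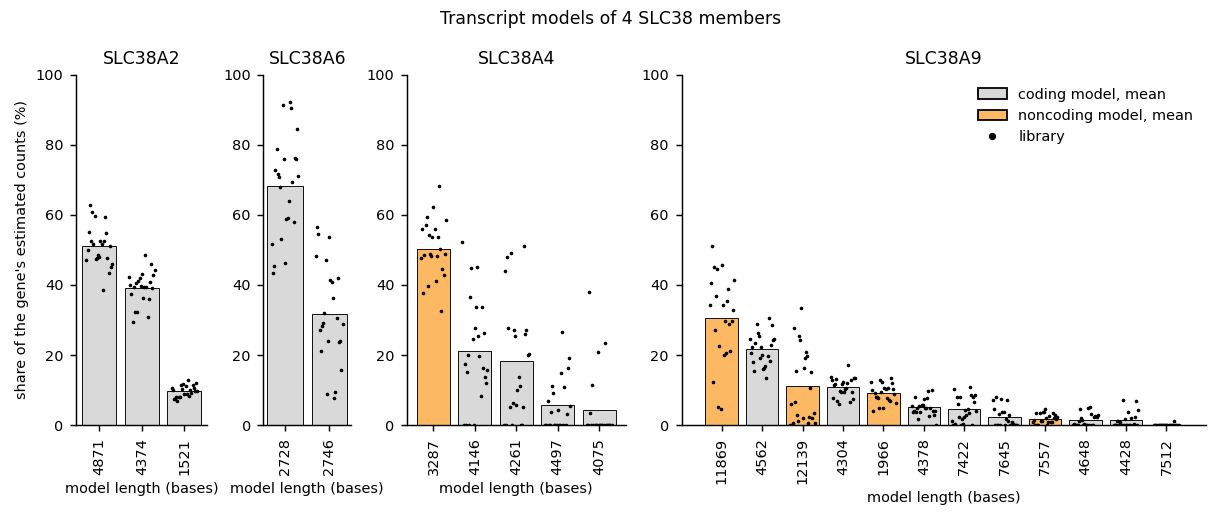
Share of a gene's estimated counts (%) assigned to each transcript model of SLC38A2, SLC38A6, SLC38A4 and SLC38A9, labelled by model length in bases, with bars at the mean over 23 libraries and a point per library. Orange bars are models without a coding sequence, which lead in SLC38A4 and SLC38A9.

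Within labels and sets, the members did not rise and fall as a group. Of the 36 pairs of members, 20 had a positive Pearson's r over the 23 libraries after the means of label and set were removed, and the median r was 0.03. The pair SLC38A4 and SLC38A10 had r = -0.63 (permutation p 0.00135, adjusted p 0.0486 over 36 pairs) and Spearman's rho = -0.52 (permutation p 0.0114, adjusted p 0.205), both two-sided over 100000 permutations. It was -0.54 without the 2 libraries farthest from the median of SLC38A4, -0.69 in the first set and -0.51 in the second. The remaining 35 pairs had adjusted p values of 0.2995 or more for r, and 0.205 or more for rho. The neighbours SLC38A1 and SLC38A2 had r = -0.08 (permutation p 0.706, adjusted p 0.847). These permutations took the 23 residuals as freely exchangeable and made no allowance for the label and set means removed. The p values are therefore too low, and the adjusted p of 0.0486 is not read as a call.

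The genes most like each member in the same residuals are given as a description, from 18011 genes with a median of at least 1 CPM. SLC38A10 was most like HSF1, the heat shock factor (r = 0.95), and 289 genes had an r beyond 0.8 with it. SLC38A3 followed LTC4S, the leukotriene C4 synthase (r = 0.89), CIDEC, a lipid droplet protein (r = 0.88), and SLC22A18 (r = 0.87). SLC38A1 followed MEGF9 (r = 0.875), SLC38A4 followed LOC100739219 (r = 0.87), LOC106510027 (r = 0.83) and KBTBD3 (r = 0.82), and SLC38A6 followed CHIC1 (r = 0.845). For SLC38A2 it was NDFIP2 (r = 0.84), an adaptor of ubiquitin ligases, for SLC38A7 RAB15 (r = 0.82), for SLC38A9 SPATS2 (r = 0.80) and for SLC38A11 DDB2 (r = 0.785). No gene had an r beyond 0.8 with SLC38A11.

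Glutamine also enters and leaves tubule cells through other families. Of 10 such transporters, 0 were called for CF against non-CF by edgeR, where 0.349% of all genes were. Their median log2 fold change was -0.12 beside about 0 over all genes. At an unadjusted p under 0.05, where 13.7% of all genes stood, 1 was higher and 2 were lower in CF. SLC7A5, the large exchanger that trades intracellular glutamine for leucine, was at 80.4 ± 38.9 CPM in CF (n = 11) and 43.3 ± 8.34 CPM in non-CF libraries (n = 12), a log2 fold change of 0.89 (SE 0.215, adjusted p 0.0567, edgeR). It passed the threshold without any 1 of CF pigs 2, 3, 4 and 5 (lowest adjusted p 0.0315, edgeR), with DESeq2, and with a filter of at least 1 CPM in 6 libraries. Its difference was 0.27 (adjusted p 0.781, edgeR) in the first set and 1.43 (adjusted p 0.00132, edgeR) in the second, where it passed the threshold and CF libraries were at 80.6 to 139 CPM and non-CF libraries at 33.6 to 47.9. SLC6A19, the luminal importer of neutral amino acids, was at 20.8 ± 9.11 CPM in CF and 31.4 ± 10.4 in non-CF libraries (log2 fold change -0.59, SE 0.213, adjusted p 0.198, edgeR). For SLC6A19 the difference was -1.18 in the first set and 0.02 in the second. Of all genes, edgeR called 0 in the first set alone and 2.27% in the second.

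Of 14 genes of glutamine metabolism, 0 were called by edgeR for CF against non-CF, where 0.349% of all genes were. Their median log2 fold change was -0.06. GLS2, the liver-type glutaminase, was at 4.30 ± 1.07 CPM in CF (n = 11) and 5.16 ± 0.969 CPM in non-CF libraries (n = 12), a log2 fold change of -0.26 (SE 0.130, adjusted p 0.375, edgeR).

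Of 25 genes of lysosomal amino acid sensing, the pathway of SLC38A9, 1 was called by edgeR, where 0.349% of all genes were. It was SESN2, an inhibitor of MTOR signalling that senses leucine and is raised in amino acid shortage. SESN2 rose from 32.7 ± 4.42 CPM in non-CF (n = 12) to 62.5 ± 32.2 CPM in CF libraries (n = 11), a log2 fold change of 0.94 (SE 0.201, adjusted p 0.0415), with 8 of 11 CF libraries above the non-CF median. The call was lost when any 1 of 14 libraries was left out (CF pigs 6, 7, 8, 9 and 11, HET pigs 14, 20 and 21, and all 6 WT pigs), with an adjusted p of up to 0.0858. The difference was 0.32 (adjusted p 0.658) in the first set and 1.52 (adjusted p 0.00239) in the second. At an unadjusted p under 0.05, 4 of the 25 genes were higher and 3 lower in CF, beside 13.7% of all genes in either direction, and the list's median log2 fold change was 0.01. In the second set SESN2 and SLC7A5 passed the threshold, as 2.27% of 20882 genes did, and SLC38A2, at -0.24, did not (adjusted p 0.185, edgeR). In the first set 0 of 21038 genes passed it. The differences between sets had adjusted p values of 0.140 for SESN2, 0.183 for SLC7A5 and 0.157 for SLC38A2 in edgeR.

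Markers of other tubule segments were set beside these results. In the loop of Henle and the distal tubule, 3 of 4 markers were lower in CF at an unadjusted p under 0.05, beside 13.7% of all genes in either direction, and 0 were called. CALB1, a calcium-binding protein, was at -1.40 (SE 0.345, adjusted p 0.0636, edgeR), SLC12A3, the thiazide-sensitive cotransporter, at -0.64 (SE 0.172, adjusted p 0.0843, edgeR) and SLC12A1, the loop cotransporter, at -0.28 (SE 0.081, adjusted p 0.0966, edgeR) on the log2 scale. In each of these, 0 of 11 CF libraries lay above the non-CF median. The fourth marker, UMOD, went the other way at 0.28 (SE 0.187, adjusted p 0.544, edgeR), with 6 of 11 CF libraries above the non-CF median. The summed level of the 4 markers was 1079 to 1710 CPM in CF and 1135 to 2143 CPM in non-CF libraries. Of 4 collecting duct markers 0 were called by edgeR, where 0.349% of all genes were. In CF 2 of them were higher and 2 lower, with a median log2 fold change of -0.09. The water channels AQP2 and AQP3 were at -0.24 and -0.20 and the sodium channel subunit SCNN1G at 0.02 on the log2 scale, while ATP6V1B1, a proton pump subunit of intercalated cells, was higher in CF at an unadjusted p under 0.05 (log2 fold change 0.38, SE 0.110, adjusted p 0.103, edgeR, with 10 of 11 CF libraries above the non-CF median). Collecting duct markers summed to 248 to 511 CPM in CF and 278 to 399 CPM in non-CF libraries. Erythroid markers summed to 68.3 to 418 CPM in CF and 65.7 to 192 CPM in non-CF libraries. Their part in the values of the SLC38 genes was not tested.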

How the data were processed

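RNA of kidney cortex from 23 newborn pigs was sequenced after ribosomal RNA depletion with a stranded kit. The authors deposited estimated counts per transcript, made with kallisto on Sscrofa11.1 RefSeq transcripts, and 63.0% of these values were not whole numbers. The deposited TPM values were made by the authors in the same step, and were summed per gene here for levels only. Whether strand was used is not given in the sources used here.

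Estimated counts of 77689 transcripts were summed to 26687 gene symbols with the deposited table and rounded. Groups came from the genotype labels, in which each library is another pig. CF was compared with non-CF, and each pair of labels was compared, with edgeR 4.0.16 (limma 3.58.1, R 4.3.3): TMM normalization, its expression filter with a minimum count of 10, quasi-likelihood tests and Benjamini-Hochberg adjustment at 0.05 over all genes. An interaction term tested whether the CF difference varied between the sets of pig numbers. DESeq2 1.42.0, other normalizations and filters, the set as a term, each set alone, leaving out single libraries and an exact Mann-Whitney test were alternatives. Python 3.11.15, pandas 2.3.3 and pysam 0.24.0 served for tables and sequences. Methods were tested on simulated data.

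Depth was 32901281 to 52952273 estimated counts per library (median 44639997), and 0 pairs of libraries were identical. The members and gene lists were chosen with earlier results of these data known. Named genes were the 9 members, CFTR, the genes of each list past the threshold or otherwise the 2 with the smallest p, and the genes most like each member. Genes sharing sequence with a member and markers of liver and tubule segments were named after their values were seen. A gene that this rule names is not reported here.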

Additional observations from a re-analysis of the deposited data

Results flagged for a closer look

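In 18 groups of 6 libraries (each member in HET and in WT), 4 values in 3 libraries stood apart by Dixon's criterion, which chance meets in about 1 of 20 groups. SLC38A2 was at 239 CPM in HET pig 20 and 183 to 204 CPM in the other HET libraries. SLC38A11 was at 7.75 CPM in the same library and 4.12 to 5.34 CPM in the others. SLC38A7 was at 13.3 CPM in WT pig 12, below the other WT libraries at 19.7 to 22.4 CPM. SLC38A9 was at 136 CPM in WT pig 22, above the others at 67.7 to 92.7 CPM, and this pig belongs to the second set of pig numbers.

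The CF difference of SLC38A2 varied between the sets of pig numbers by -0.53 on the log2 scale (SE 0.139), with an unadjusted p of 8.31e-04 and an adjusted p of 0.157 in edgeR's interaction test.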

How the results depend on the processing

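No paired analysis was possible because the genotype groups share no pig numbers and the labels give no litter. The count of SLC38 members called was 0 in each comparison and became 1 with DESeq2 for CF against WT (SLC38A1), 1 with DESeq2 for the difference between sets (SLC38A2), and 0 to 1 for that difference over libraries left out, with 1 without WT pig 17. Of 1305 alternative values of the members, 1260 kept their direction and side of the threshold, 42 changed sign and 3 passed the threshold. For CF against non-CF, SLC38A10 became -0.0050 with upper-quartile normalization and -0.0145 in pigs 1 to 6 and 12 to 18 alone, where SLC38A11 became 0.0200. In pigs 7 to 11 and 19 to 23 alone, SLC38A2 became -0.24 and SLC6A19 0.0215. SLC38A2 for HET against WT became 0.0223 with the set as a term. Leaving out 1 library gave, for CF against non-CF, -0.0228 to 0.0588 for SLC38A7 and -0.0450 to 0.0537 for SLC38A10. For CF against WT it gave -0.00566 to 0.163 for SLC38A10 and -0.277 to 0.0185 for SLC38A11. For HET against WT it gave -0.0689 to 0.0704 for SLC38A2, -0.15 to 0.19 for SLC38A3, -0.196 to 0.0336 for SLC38A9 and -0.22 to 0.12 for SLC38A11. For CF against HET it gave -0.135 to 0.0204 for SLC38A10 and -0.199 to 0.0401 for SLC38A11. For the difference between sets it gave -0.0294 to 0.0755 for SLC38A1, -0.0537 to 0.445 for SLC38A3 and -0.0402 to 0.132 for SLC38A7. The cause of these changes was not tested. The number of all genes called for CF against non-CF ran from 17 to 203 over libraries left out, and was 73 with all libraries, 483 with DESeq2, 47 with the exact Mann-Whitney test, 0 in the first set alone and 473 in the second. Leaving libraries out of the test between sets, and the alternatives for CFTR and the listed genes, were chosen after seeing the data. At a floor of 0.0567 to 0.0912 CPM depth did not limit the detection of any member.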

Other observations

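The annotation holds 2 further SLC38 symbols. SLC38A5, a relative of SLC38A3 in the N system, was at 4.86 ± 0.976 CPM in CF (n = 11) and 5.21 ± 0.719 CPM in non-CF libraries (n = 12), a log2 fold change of -0.10 (adjusted p 0.734, edgeR). SLC38A8 was near the limit of detection, at 0.301 ± 0.328 and 0.237 ± 0.165 CPM (adjusted p 0.817, edgeR).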
